A study of Homo sapiens with 4 samples.

Results

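The 10 genes described here encode histone H3 lysine 4 (H3K4) methyltransferases and their partners at enhancers. They are the methyltransferase genes KMT2A, KMT2B, KMT2C and KMT2D, the subunit genes KDM6A, PAXIP1, NCOA6 and ASH2L, and the acetyltransferase genes EP300 and CREBBP. They were chosen by name, and all 10 were found among 19974 protein-coding genes of the RefSeq table. The readout was every ATAC-seq interval inside each gene and up to 50 kb beyond its ends, in HCT116, a human cell line from a colorectal carcinoma. ATAC-seq marks open DNA by cutting and tagging it with the Tn5 transposase. The FOXD2 cells (2 libraries) carried a pSin lentivirus that expresses full-length FOXD2, a transcription factor of the forkhead family. The control cells (2 libraries) carried the empty pSin vector. All 4 libraries came from puromycin-selected stable cells (5 µg/ml), with 50000 cells each, and the labels do not say whether replicates were separate cultures. Overlapping intervals of the 4 lists were merged into regions, and 121 of 122856 regions lay in these windows.

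KMT2C and KMT2D, also called MLL3 and MLL4, place monomethyl marks on H3K4 at enhancers. KDM6A, PAXIP1 and NCOA6 belong to their complexes, while ASH2L is part of the core shared by all H3K4 methyltransferases of this family. KMT2A and KMT2B, also called MLL1 and MLL2, form separate complexes that act mainly at promoters, and EP300 and CREBBP acetylate histones at active enhancers and promoters.

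The FOXD2 lists held 82739 and 64675 intervals on chromosomes 1 to 22 and X in replicates 1 and 2, and the control lists held 77752 and 72796. An interval needed a summit of at least 8 tags to be called, or 9 in FOXD2 replicate 2, so a site without an interval may still be weakly open. Read depth is unknown. As a check of the cell type, 7 of 8 epithelial and colon genes had a gene-end interval in all 4 libraries, among them EPCAM, CDH1 and CDX2. VIL1 had one in FOXD2 replicate 2 and control replicate 2. Of 12 genes of leukocytes, endothelium, fibroblasts and neurons, 6 had no gene-end interval in any library, among them PTPRC, PECAM1 and DCN. COL1A1, RBFOX3 and SYT1 had one in all 4. CDH5 had one in both FOXD2 libraries and in neither control, and CD3E in both controls and in neither FOXD2 library. All 4 libraries are labelled HCT116, and why these genes had intervals there was not tested.

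The sequences before the annotated starts are shown for KMT2A, which has the strongest gene-end region of the group, for KMT2C, KMT2D and CREBBP, whose 5′-end regions ranked differently in FOXD2 and control libraries, and for KDM6A, whose region across the start ranks lowest. Each run gives the 250 bases before the start, 5′ to 3′ on the gene's strand, from RefSeq (GRCh38.p14), and capitals mark the GC box GGGCGG on either strand.
KMT2A (chr11:118436242-118436491, plus strand): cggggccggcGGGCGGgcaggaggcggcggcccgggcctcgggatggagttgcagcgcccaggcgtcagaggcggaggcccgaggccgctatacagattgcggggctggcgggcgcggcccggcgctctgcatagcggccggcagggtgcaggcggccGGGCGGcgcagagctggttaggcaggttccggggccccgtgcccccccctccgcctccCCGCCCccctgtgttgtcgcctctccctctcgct
KMT2C (chr7:152436004-152436253, minus strand): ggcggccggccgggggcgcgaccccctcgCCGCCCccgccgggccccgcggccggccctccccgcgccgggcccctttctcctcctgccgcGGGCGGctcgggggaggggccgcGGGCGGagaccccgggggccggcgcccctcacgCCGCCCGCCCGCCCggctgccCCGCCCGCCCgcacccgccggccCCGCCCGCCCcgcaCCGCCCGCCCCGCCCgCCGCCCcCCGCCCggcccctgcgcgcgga
KMT2D (chr12:49060795-49061044, minus strand): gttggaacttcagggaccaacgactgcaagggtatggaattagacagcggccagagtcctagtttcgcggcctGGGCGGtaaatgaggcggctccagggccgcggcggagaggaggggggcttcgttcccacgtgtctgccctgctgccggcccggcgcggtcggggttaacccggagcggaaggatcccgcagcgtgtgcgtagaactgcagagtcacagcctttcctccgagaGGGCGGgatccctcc
CREBBP (chr16:3880714-3880963, minus strand): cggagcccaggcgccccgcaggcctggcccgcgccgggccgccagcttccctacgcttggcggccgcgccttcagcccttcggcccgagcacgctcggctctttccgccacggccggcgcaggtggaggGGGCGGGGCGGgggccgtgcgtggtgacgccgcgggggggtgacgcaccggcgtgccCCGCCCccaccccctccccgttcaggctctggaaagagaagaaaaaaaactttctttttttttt
KDM6A (chrX:44872938-44873187, plus strand): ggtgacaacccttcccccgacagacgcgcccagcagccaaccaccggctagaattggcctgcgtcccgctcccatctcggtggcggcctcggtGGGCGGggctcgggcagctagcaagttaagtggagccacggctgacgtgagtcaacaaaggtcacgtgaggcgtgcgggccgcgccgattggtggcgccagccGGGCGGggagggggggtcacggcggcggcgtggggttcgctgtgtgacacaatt

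The RefSeq promoter table held 8 starts of 7 of the genes, and PAXIP1, NCOA6 and ASH2L had no entry. All 8 stretches were rich in CpG. They held 23 to 48 CpG in 250 bases, against a median of 16 over 22132 promoters of protein-coding genes, and 65.6% to 92.0% G and C, against a median of 62.0%. KMT2C was the extreme, with 48 CpG and 15 GC boxes, while KMT2D had 23 CpG and 2 GC boxes. The GC box was in 7 of the 8 stretches, and in 53.7% of all promoters. EP300 had none. CCAAT was in 1 of the 8, that of KDM6A, and in 32.7% of all promoters. TGTTTAC and TGTTTGC, letters that forkhead factors can bind, were in 0 of the 8 and in 5.10% of all promoters. Also in 0 of the 8 were the ETS letters CCGGAAG (10.7% of all) and TATAAA (9.0% of all). All motifs were searched on both strands, and an absent match says only that these letters are not in this window. The 5 stretches shown lay inside called intervals of all 4 libraries over their full 250 bases, except that of KMT2C in FOXD2 replicate 2, which was covered over 228 bases.

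Gene ends had a called interval in every library, and most sites inside the genes were missing from at least 1 list. All 10 genes had a region within 1000 bp of an annotated end (a gene end) in all 4 libraries, which 65.6% of all protein-coding genes had. For the 7 genes of known strand this region was at the 5′ end in 7 of 7, against 65.1% of 15813 genes of known strand. At the 3′ end it was present for 2 of 7, against 10.1% of those genes. Both 3′ regions also lay at an end of a neighbour, IGFLR1 beside KMT2B and PRKAG1 beside KMT2D. Of the 15 gene-end regions 13 (86.7%) were in all 4 libraries, against 68.8% of regions at the ends of all protein-coding genes.

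Inside the genes, more than 1000 bp from either end, 39 regions were called over 1142 kb of gene length, and 3 of them (7.69%, 95% Clopper-Pearson interval 1.62% to 20.9%, counting error only) were in all 4 libraries. The share was 24.7% over the inner regions of all protein-coding genes. These 3 were a pair in KMT2C and 1 in KDM6A. A further 6 were in 3 libraries, 14 in 2 and 16 in only 1. Inner sites were also sparser than elsewhere, at 3.41 regions per 100 kb of these genes against 4.41 over all genes, and they were weak. Their median summit was 16 tags in both FOXD2 libraries and 20.5 and 19.5 in the controls, where 8 or 9 tags were needed for a call. Each median is over the inner regions of that library alone (27 and 15 with FOXD2, 16 in each control). The sets differ and depth is unknown, so the medians do not compare the groups. Gene-end regions had a median of 92 and 71 tags in the FOXD2 libraries, against 101 and 96 in the controls. Leaving out FOXD2 replicate 1 gave a share of 12.9% in the 3 remaining libraries, and leaving out FOXD2 replicate 2 gave 8.11%. The share was 20.6% when control replicate 1 was left out and 10.5% for control replicate 2. Presence in 3 libraries is easier to reach than in 4, so these shares cannot be set against the 24.7%. The share over all genes with a library left out was not computed.

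**Figure D1:**
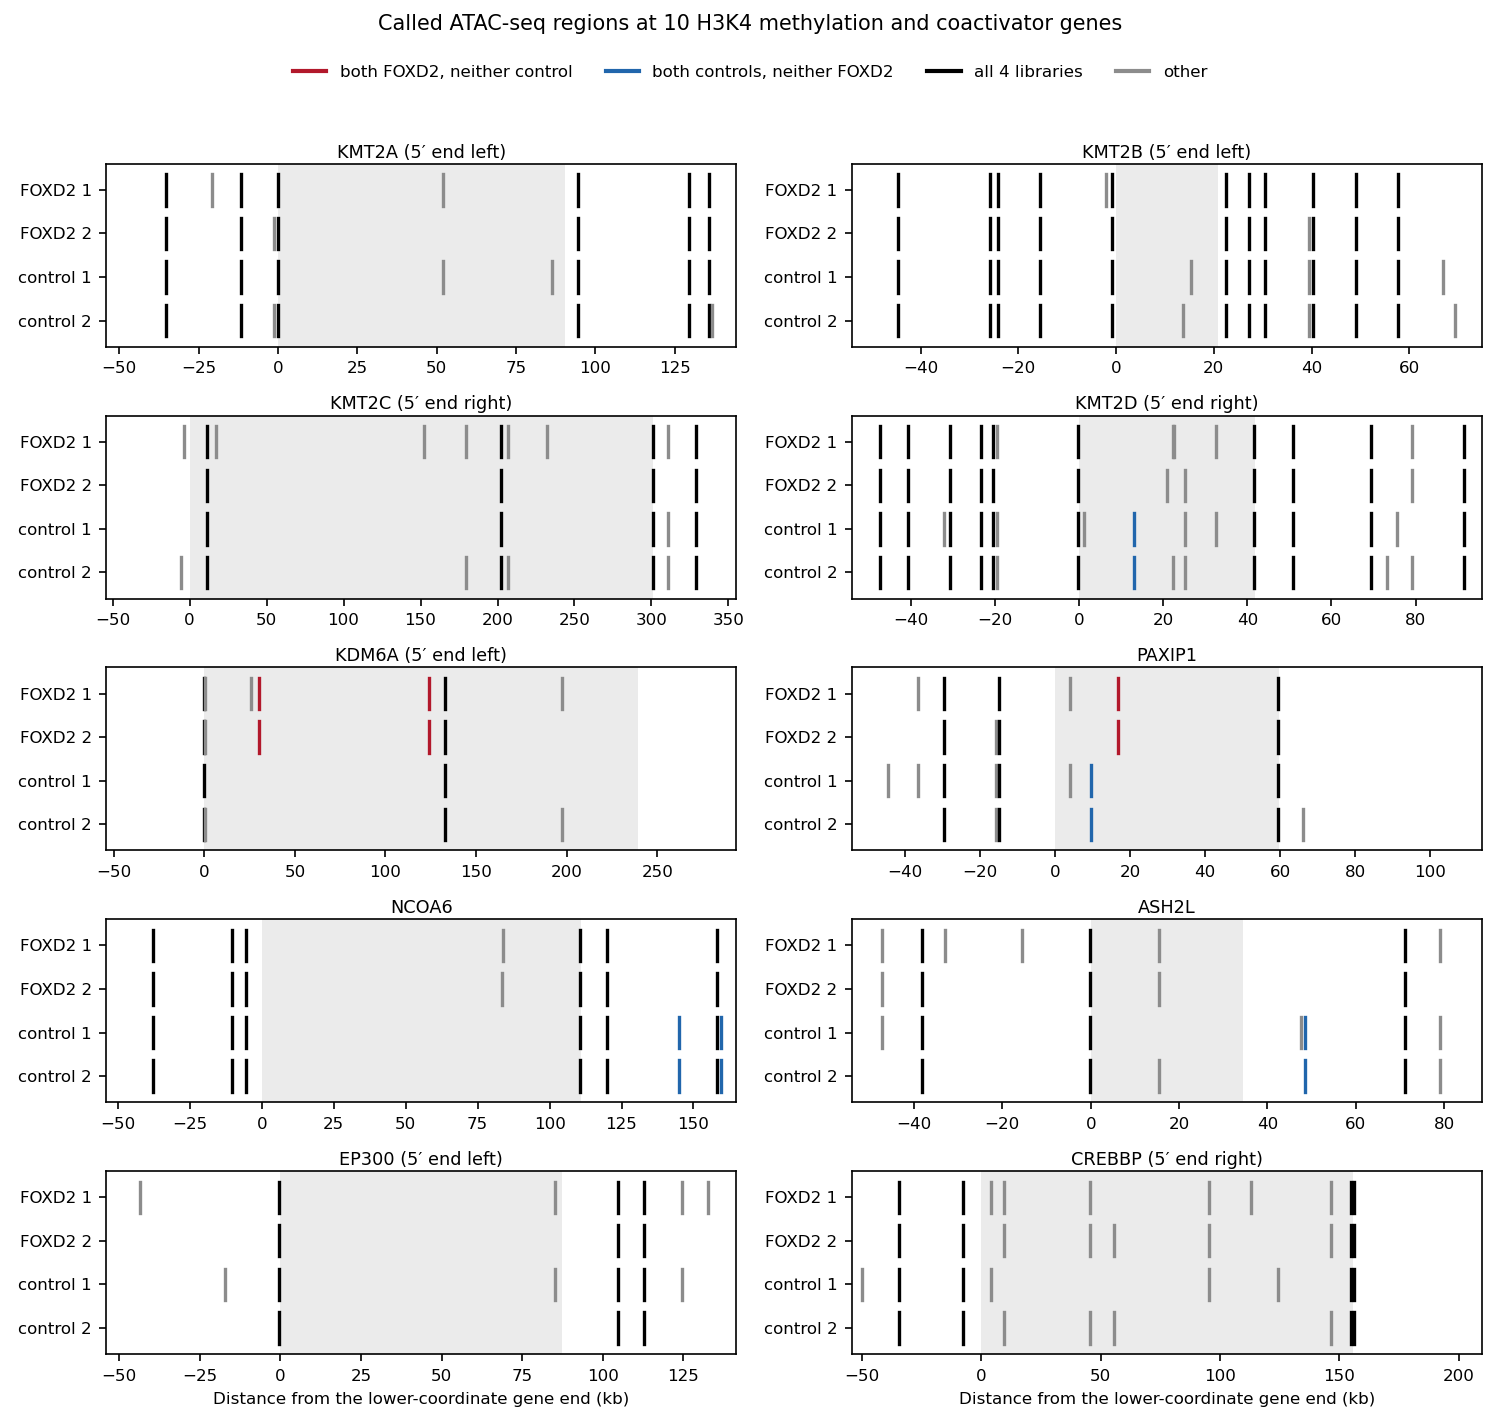
Each panel shows 1 gene (grey) with 50 kb to each side, by distance in kb from the lower-coordinate gene end, and each vertical bar is a region with a called interval in that library. Black bars, present in all 4 libraries, stand at a gene end in all 10 genes, and the 3 gained (red) regions lie inside KDM6A and PAXIP1.

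Relative to their number, inner sites differed most between the libraries. They numbered 27 in FOXD2 replicate 1 and 15 in FOXD2 replicate 2, against 16 in each control. FOXD2 replicate 1 has the longest list of all and FOXD2 replicate 2 the shortest, and the FOXD2 values lay on both sides of the controls. Gene-end regions numbered 14 and 15 in the FOXD2 libraries, against 13 and 15 in the controls. In the flanks the numbers were 50 and 40 with FOXD2, against 54 and 50 in the controls. Over all 121 regions the FOXD2 libraries had 91 and 70 and the controls 83 and 81. The mean difference was −1.5 regions, smaller than the gap between the FOXD2 libraries (two-sided exact permutation p = 1). With 2 libraries against 2 no two-sided exact p can fall below 0.333. Leaving out FOXD2 replicate 1 gave −12 and FOXD2 replicate 2 gave 9, while leaving out control replicate 1 gave 0.5 and control replicate 2 gave −2.5.

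**Figure D2:**
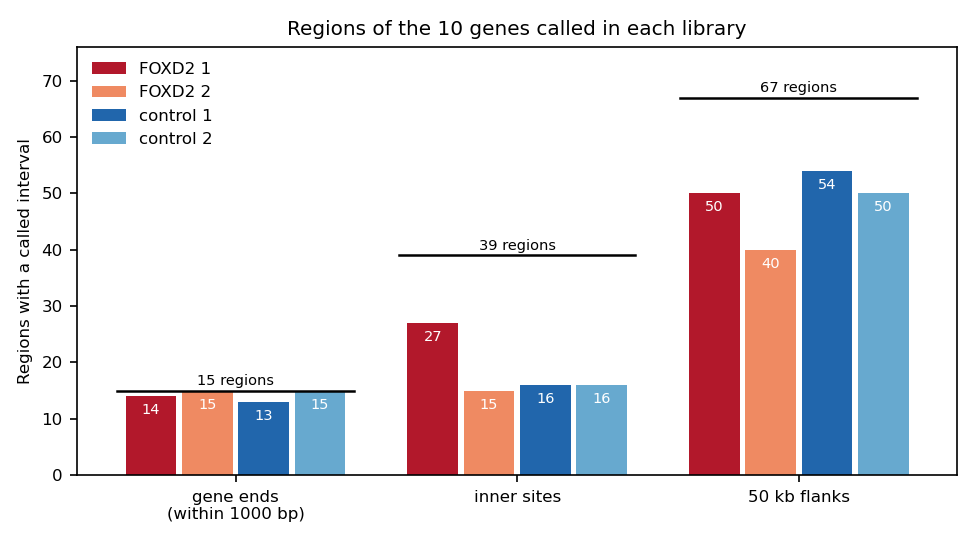
Bars give the number of regions of the 10 genes with a called interval in each library, at gene ends, at inner sites and in the 50 kb flanks, and the black line gives all regions of that kind. At inner sites FOXD2 replicate 1 stands at 27 of 39 and the other libraries at 15 or 16, while at gene ends the bars reach 13 to 15 of 15.

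Strength was compared as a percentile. In each library the 39933 regions present in all 4 libraries were ranked by the authors' −log10 q, so that every library ranks the same set. A percentile of 99 marks a region stronger than nearly all others in that library. The median over 5′-end regions of all genes of known strand was 81.9. For genes of known strand the order below uses the region across the start. By the mean over the 4 libraries KMT2A came first (98.7 ± 0.896, SD, n = 4 libraries), followed by EP300 (93.4 ± 2.61), ASH2L (90.3 ± 5.43), PAXIP1 (84.3 ± 4.02), KMT2B (80.4 ± 4.11), KMT2D (79.9 ± 11.2), NCOA6 (78.4 ± 6.45), CREBBP (76.8 ± 2.71), KMT2C (74.8 ± 5.72) and KDM6A (58.1 ± 17.4). Of neighbours in this order, only KMT2A and EP300, and ASH2L and PAXIP1, differed by more than the larger SD of the pair. This SD spans both groups and so takes in any difference between them. For KMT2D the mean was 71.5 with FOXD2 and 88.3 in the controls. KMT2B and KMT2D also had a shared region at the 3′ end, beside a neighbour's end. By the mean over the 4 libraries it ranked above the 5′ region in both genes. For KMT2B it ranked above in both FOXD2 libraries but below in both controls, at 69.6 and 82.8 against 79.1 and 85.5. The 3′ region of KMT2D had percentiles of 85.7 and 92.3 with FOXD2, against 92.0 and 85.4 in the controls. Its mean would place KMT2D between ASH2L and PAXIP1. In control replicate 1 it ranked just below the 5′ region, at 92.0 against 92.4.

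**Figure D3:**
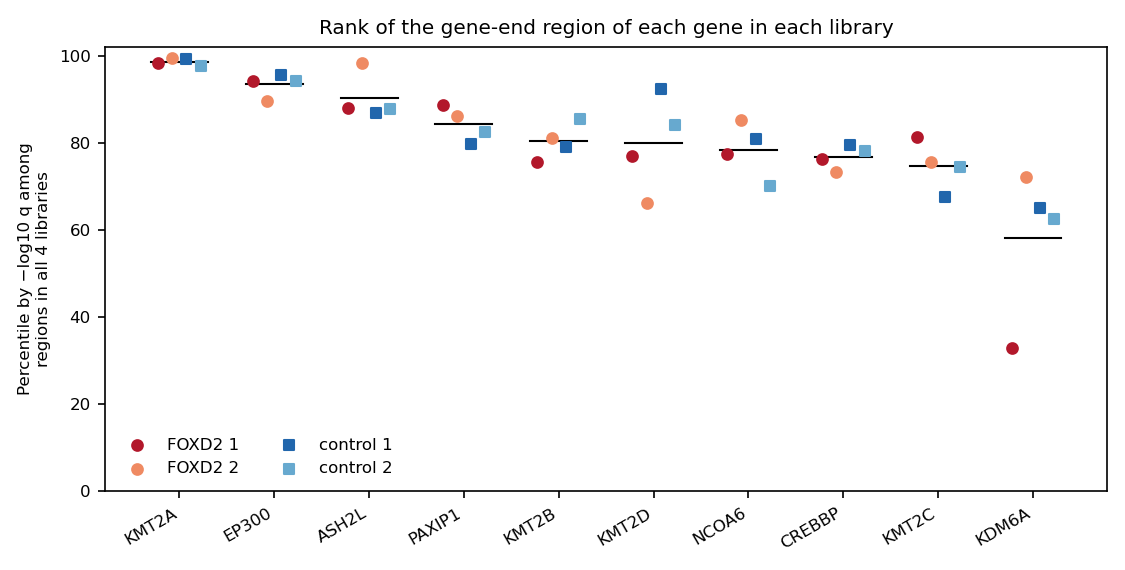
Points give the percentile of each gene's gene-end region in each library, the one across the start where strand is known (circles FOXD2, squares control), among the 39933 regions present in all 4, and black lines give the mean. The 4 KMT2A values lie between 97.5 and 99.5, and KDM6A spans 32.8 to 72.0.

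KMT2A (chromosome 11, 118436492 to 118526832, hg38) had the strongest gene-end region, at 118435940 to 118437395 across the start. Its −log10 q was 92.9 and 85.3 in FOXD2 replicates 1 and 2, against 125 and 97.1 in control replicates 1 and 2. The summit lay at −182 to −162 bp from the annotated start over the 4 libraries. As percentiles the FOXD2 values were 98.3 and 99.5 and the control values 99.3 and 97.5, so the groups overlapped. Inside KMT2A only 2 regions were called, 1 in FOXD2 replicate 1 and control replicate 1 and the other in control replicate 1 alone. Of the 6 regions of the window in all 4 libraries, 1 ranked higher in both FOXD2 libraries. It lay at 118530352 to 118531566 at the ends of TTC36 and TMEM25 and had percentiles of 86.1 and 75.4 with FOXD2, against 70.7 and 67.8 in the controls.

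KMT2B (chromosome 19, 35718003 to 35738878) lies among close neighbours, and 11 of its 17 regions were in all 4 libraries. The 5′-end region, 35716201 to 35718060, also covers an end of ZBTB32. Its percentiles were 75.7 and 81.2 with FOXD2, against 79.1 and 85.5 in the controls, and the groups overlapped. The 3′ region at 35739742 to 35741119 ranked higher with FOXD2, at 84.7 and 91.3 against 69.6 and 82.8 in the controls. So did 2 regions in the flank outside genes. Inside KMT2B each control had 1 region the other lacked, and the FOXD2 libraries had none. The window held 12 regions in each FOXD2 library and 14 in each control.

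KMT2C (chromosome 7, 152134925 to 152436003) is the longest of the 10 genes at 301 kb, and held 7 inner regions. Its 5′-end region, 152435425 to 152437023, had −log10 q of 48.2 and 31.7 with FOXD2, against 39.2 and 44.2 in the controls. The percentiles were 81.4 and 75.6 with FOXD2, against 67.5 and 74.5, all lower, in the controls. Ranked by the authors' fold enrichment in place of −log10 q, the groups overlapped. An inner region 290 kb into the gene from the 5′ end, at 152146109 to 152146428, had −log10 q of 8.46 and 15.2 with FOXD2, against 7.17 and 7.03 in the controls, and summits of 16 and 23 tags against 14 in each control. It also ranked higher in both FOXD2 libraries, with percentiles of 11.3 and 42.4 against 6.04 and 7.21. FOXD2 replicate 1 had an interval in all 7 inner regions, 3 of them its own, while FOXD2 replicate 2 had 2 and the controls had 2 and 4.

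KMT2D (chromosome 12, 49018978 to 49060794) had a 5′-end region that ranked lower with FOXD2, as did 19.6% of all shared regions. The 5′-end region, 49059887 to 49061399, had −log10 q of 42.6 and 25.3 in the FOXD2 libraries, against 82.0 and 58.1 in the controls. The summit was 92 and 62 tags with FOXD2, against 136 and 109 in the controls, and lay at −44 to −42 bp from the start over the 4 libraries. The percentiles were 77.0 and 66.1 with FOXD2 and 92.4 and 84.2 in the controls, a difference of −16.7 points with no overlap of the groups. Towards the 5′ side of the gene, regions at RHEBL1 and inside DHH, a hedgehog ligand gene, also ranked lower with FOXD2, with differences of −0.48 and −4.40 points. Both overlapped between the groups when ranked by fold enrichment. On the other side a region at DDN ranked higher, at 78.8 and 64.9 with FOXD2 against 52.6 and 47.3 in the controls, so the KMT2D window held differences of both signs. Inside the gene, 1 of 7 regions was lost, at 49031783 to 49032261. It rested on control intervals that barely overlapped, at 49032057 to 49032261 in replicate 1 and 49031783 to 49032082 in replicate 2, with −log10 q of 7.65 and 10.1.

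KDM6A, the H3K27 demethylase gene (chromosome X, 44873188 to 45112779), was unlike the others in having no region at all in either 50 kb flank. All its 7 regions lay at the start or inside the gene, and they numbered 7 and 5 with FOXD2, against 2 and 4 in the controls. Of all protein-coding genes 7.76% had more regions in each FOXD2 library than in either control, and among these 10 KDM6A and CREBBP did. At the start, 44872396 to 44873393, −log10 q was 15.7 and 29.0 with FOXD2, against 36.8 and 32.9 in the controls, and the percentiles were 32.8 and 72.0 against 65.0 and 62.6. FOXD2 replicate 1 was low and FOXD2 replicate 2 high, so the groups overlapped. A second region just inside the gene, 44873575 to 44874089, was in all libraries but control replicate 1, with −log10 q of 7.95 and 5.42 with FOXD2 and 3.01 in control replicate 2.

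Of the 5 inner regions of KDM6A, 2 were gained, being present in both FOXD2 libraries and neither control. The region 30.1 kb into the gene, 44903178 to 44903420, had −log10 q of 7.54 and 6.96 and a summit of 15 tags in each FOXD2 library. The region 124 kb into the gene, 44997244 to 44997673, had −log10 q of 4.14 and 4.85 and summits of 11 and 12 tags, little above the calling floor. It had no interval at all where −log10 q of 5 or more was asked for, and it was in FOXD2 replicate 2 alone in lists of equal length. The FOXD2 intervals overlapped only in part, at 44997376 to 44997673 in replicate 1 and 44997244 to 44997459 in replicate 2. Where an overlap of 0.5 of the shorter interval was required, the region was no longer gained. Of inner regions in all protein-coding genes 4.70% were gained and 4.23% lost. Among 625 genes of 200 to 300 kb, 38 (6.08%) had at least 2 inner regions gained and none lost, as KDM6A had at 240 kb. Near the second gained region, 133 kb into the gene at 45005899 to 45006564, the single inner region shared by all libraries was weaker with FOXD2. Its −log10 q was 5.87 and 4.81 with FOXD2, against 19.9 and 13.0 in the controls, with summits of 14 and 12 tags against 26 and 20. The interval was 286 and 248 bp wide with FOXD2, against 666 and 464 bp in the controls. The percentiles were 4.21 and 2.95 with FOXD2, against 38.6 and 24.0 in the controls, the largest rank difference among the 52 shared regions of the 10 genes (−27.7 points). Where −log10 q of 5 or more was asked for, the region was missing from FOXD2 replicate 2 and was no longer shared. Sites inside KDM6A thus differed between the groups in both directions.

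**Figure D4:**
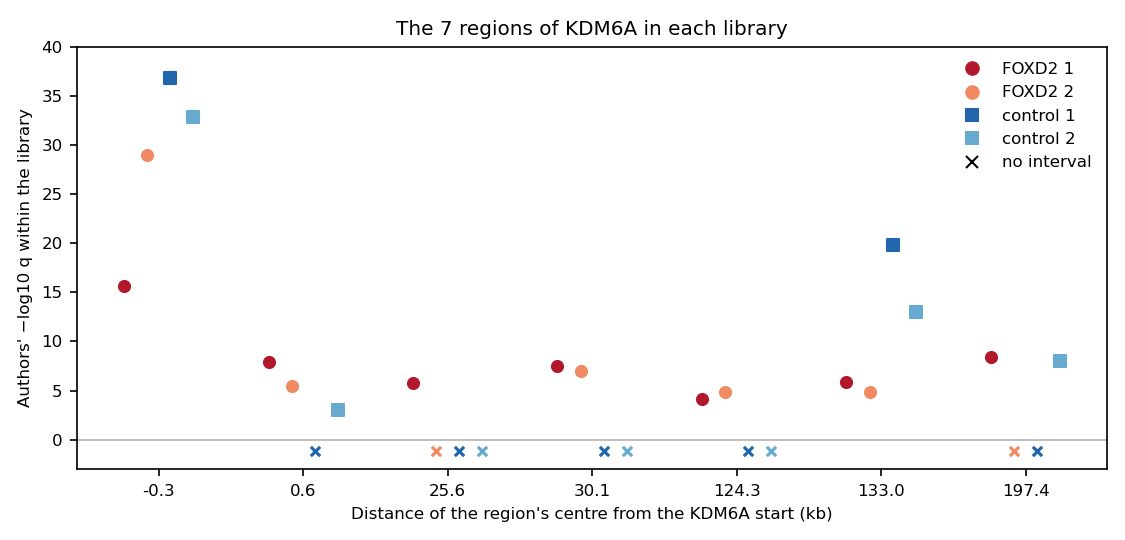
Points give the authors' −log10 q of the 7 KDM6A regions in each library (circles FOXD2, squares control), labelled by distance from the annotated start in kb and evenly spaced, not to scale. Crosses mark libraries with no interval. At 30.1 and 124.3 kb only FOXD2 libraries have points, and at 133.0 kb the FOXD2 points (5.87 and 4.81) lie under the control points (19.9 and 13.0).

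PAXIP1, which encodes the PTIP subunit (chromosome 7, 154943690 to 155003411), had 1 gained and 1 lost region inside the gene. The gained region, 154960453 to 154960744, was the strongest of the 3 gained at these genes, with −log10 q of 10.8 and 13.0 and summits of 19 and 22 tags in FOXD2 replicates 1 and 2. The lost region, 154953089 to 154953313, had −log10 q of 8.11 and 7.03 and summits of 15 and 14 tags in control replicates 1 and 2. Both kept their status under the 6 alternatives that applied to them and left out no library. Changing the flank could not alter this status, so only the other alternatives among these put it to a check. The gene-end region at the higher coordinate, 155002302 to 155004021, had −log10 q of 60.1 and 42.7 with FOXD2, against 54.4 and 55.0 in the controls. Its percentiles of 88.7 and 86.2 with FOXD2 lay above those of 79.7 and 82.4 in the controls.

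NCOA6, a nuclear receptor coactivator gene (chromosome 20, 34714774 to 34825651), was nearly without inner sites. It had 2 in 111 kb, each in 1 FOXD2 library only. They lay close together, at 34798013 to 34798212 in FOXD2 replicate 2 and at 34798280 to 34798676 in FOXD2 replicate 1. The gene-end region at 34824420 to 34825933 had percentiles of 77.4 and 85.2 with FOXD2, against 81.0 and 70.0 in the controls, which overlap. Both lost regions of this window lay beyond the gene. The region within 1000 bp of an end of ACSS2, a gene for acetyl-CoA synthesis (34874123 to 34874398), had −log10 q of 12.0 and 18.2 in the controls, the highest among the 5 lost regions. The region inside GGT7 (34859493 to 34859924) had 5.81 and 4.32, and lost its status in lists of equal length and where −log10 q of 5 or more was asked for.

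ASH2L (chromosome 8, 38105493 to 38140080) had a gene-end region at 38104761 to 38106052 with −log10 q of 58.8 and 72.6 with FOXD2, against 67.7 and 65.0 in the controls. The percentiles were 88.1 and 98.4 with FOXD2, against 86.9 and 87.8 in the controls. The lead of FOXD2 replicate 1 was small, and ranked by fold enrichment the groups overlapped. The only inner region, 38120648 to 38121105, was missing from control replicate 1 alone. A lost region lay 2790 bp from STAR, at 38153742 to 38154266, with −log10 q of 11.3 and 5.52 in the controls.

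EP300 (chromosome 22, 41092592 to 41180077) had a strong start. The region at 41091140 to 41092884 had −log10 q of 74.2 and 47.5 with FOXD2, against 93.7 and 81.6 in the controls. The percentiles were 94.3 and 89.6 with FOXD2 and 95.6 and 94.1 in the controls, so the groups overlapped. Its summit lay at −945 to −927 bp from the annotated start over the 4 libraries, farther out than in the other genes of known strand with a region across the start. The 1 inner region, near the far end of the gene, was in FOXD2 replicate 1 and control replicate 1. No region of EP300 was gained or lost.

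CREBBP (chromosome 16, 3725054 to 3880713) ranked lower with FOXD2 at each of its 4 shared regions. The region across the start, 3880526 to 3881934, had −log10 q of 41.9 and 29.9 with FOXD2, against 54.3 and 48.5 in the controls, and percentiles of 76.3 and 73.3 against 79.6 and 78.1. The next region, 3879539 to 3880271, has its centre 0.809 kb inside the gene and had percentiles of 31.8 and 33.7 with FOXD2, against 36.5 and 46.0 in the controls. Beyond the other end of CREBBP, a region at an end of TRAP1, a mitochondrial chaperone gene (3716816 to 3717962), had 81.3 and 85.0 with FOXD2, against 95.7 and 90.3. A region inside TRAP1 (3690448 to 3690933) had 66.9 and 47.8 with FOXD2, against 77.2 and 79.6. The differences ran from −21.0 to −4.04 points. Ranked by fold enrichment, the second region and the one at the TRAP1 end overlapped between the groups, with differences of −4.51 and −10.1. Of 11229 genes with at least 4 shared regions in their window, 6 (0.0534%) had every one ranked lower with FOXD2, namely CREBBP, BTN3A3, JMJD7, RIDA, SPATA31H1 and TMEM144. Each of the 6 had exactly 4 such regions, as 2415 genes had, and their share among these was 0.248%. The pattern was picked after its values were seen and carries no test. Presence went the other way, since the CREBBP window had 10 and 9 regions with FOXD2 and 8 in each control. All 9 inner regions of CREBBP were missing from at least 1 library. Those in 3 libraries, 4 in number, were absent from a control in each case, namely from control replicate 1 in 3 and from control replicate 2 in 1. Their summits were weak, at 11 to 25 tags. The matching share over all genes was not computed, so this count is only a description.

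Over the 10 genes together, 3 of 121 regions (2.48%) were gained and 5 (4.13%) were lost, where 3.89% and 3.87% of all regions were gained and lost. The shares lie near the background. All 3 gained regions were inner sites, the lost ones were 2 inner sites and 3 flank sites, and no gene-end region was gained or lost. With a library left out the definition relaxes and both counts rise. With FOXD2 replicate 1 left out, 5 of 106 regions were gained (4.72%, against 12.0% of all regions) and 8 were lost (7.55%, against 10.3%). With FOXD2 replicate 2 left out, 18 of 120 were gained (15.0%, against 19.5%) and 8 were lost (6.67%, against 5.93%). With control replicate 1 left out, 6 of 110 were gained (5.45%, against 6.91%) and 11 were lost (10.0%, against 14.4%). With control replicate 2 left out, 9 of 115 were gained (7.83%, against 6.18%) and 17 were lost (14.8%, against 17.0%). With flanks of 100 kb, 9 of 209 regions were gained (4.31%) and 7 were lost (3.35%). Each FOXD2 library had fewer regions than either control in the windows of KMT2B, KMT2D and NCOA6, 3 of the 10 genes, against 12.2% of all protein-coding genes.

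Of the 52 shared regions, 12 (23.1%) ranked higher in each FOXD2 library than in either control, and 8 (15.4%) ranked lower, where 19.0% and 19.6% of all shared regions did. The lower ones belonged to 3 genes, with 4 at CREBBP, 3 at KMT2D and 1 at KDM6A. The higher ones were spread over 8 genes, with 3 at KMT2B, 2 each at KMT2C and ASH2L, and 1 each at KMT2A, KMT2D, PAXIP1, NCOA6 and EP300. Only KMT2D had regions on both sides. The median difference was 0.41 points for the 52 regions and −0.25 for all shared regions. Ranked by fold enrichment, 9 of the 52 were higher (17.3%, against 19.6% of all) and 7 lower (13.5%, against 19.1%). The share ranked higher thus lay above that of all shared regions by −log10 q and below it by fold enrichment. Leaving out a library makes such an order easier to reach. Without FOXD2 replicate 1, 26 of 55 shared regions ranked higher (47.3%, against 35.7% of all) and 18 lower (32.7%, against 36.7%). Without FOXD2 replicate 2, 18 of 56 ranked higher (32.1%, against 34.7%) and 21 lower (37.5%, against 35.8%). Without control replicate 1, 19 of 58 ranked higher (32.8%, against 33.2%) and 18 lower (31.0%, against 33.9%). Without control replicate 2, 19 of 54 ranked higher (35.2%, against 32.3%) and 14 lower (25.9%, against 34.4%).

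**Figure D5:**
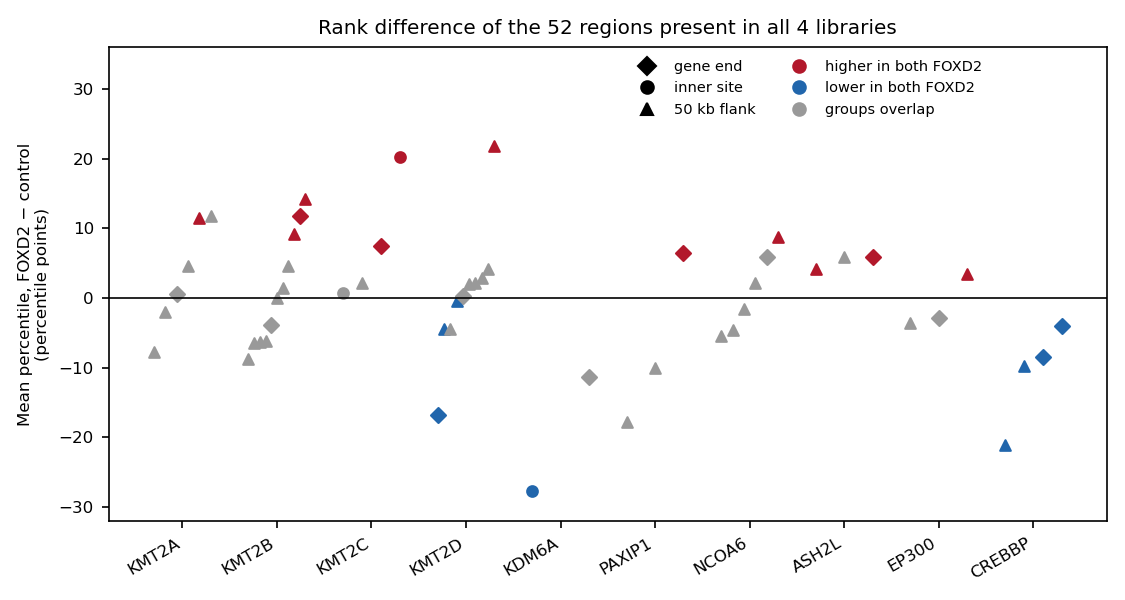
Points give the mean percentile of the FOXD2 libraries minus that of the controls for each of the 52 regions present in all 4 libraries, in percentile points, by gene. Red and blue mark regions higher or lower in both FOXD2 libraries. The lowest point is the KDM6A inner site at −27.7, and all 4 CREBBP points are blue.

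Other genes of H3K4 methylation and coactivation were read the same way, 29 in all. Of these, 26 had a gene-end region in all 4 libraries, and SETD1B, KDM5A and NCOA2 did not. Inside them 32 of 117 inner regions (27.4%) were in all 4 libraries, near the 24.7% of all genes and above the 7.69% of the 10 genes. Within the genes or at their ends, 8 of 156 regions (5.13%, against 3.89% of all regions) were gained and 3 (1.92%, against 3.87%) lost. Every one was an inner site, as were 117 of the 156 regions. The strongest gained region lay in NCOA2, a steroid receptor coactivator gene (chromosome 8, 70327814 to 70328226), with −log10 q of 25.4 and 26.9 in FOXD2 replicates 1 and 2. NCOA2 had a further region gained and 1 lost. DPY30, a core subunit of the methyltransferase complexes, the H3K4 demethylase genes KDM5A and KDM5C, the acetyltransferase gene KAT2B and the coactivator gene NCOA1 had 1 gained region each. CARM1, an arginine methyltransferase gene, had 1 lost region, and SMARCA4, a chromatin remodeller gene, had 1 of each. Of 65 shared regions 16 (24.6%, against 19.0% of all shared regions) ranked higher and 11 (16.9%, against 19.6%) lower with FOXD2.

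The genes most like KDM6A were sought among all protein-coding genes with a gene-end region in all 4 libraries, at least as many inner regions gained and none lost. Of 213 such genes the 5 closest to its 240 kb in length were TMEM131, MAP4, TANGO6, MAP3K5 and ADAMTS2. They had 2 or 3 gained inner regions each, but 11 to 32 inner regions in all, against 5 in KDM6A.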

How the data were processed

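Peak intervals of 4 ATAC-seq libraries, 1 list per library, were used. The build is hg38, and the tools were MACS2 2.2.7.1, Bowtie2 2.3.4.1, cutadapt 3.4, bedtools and Picard, per the submitters' processing notes. Tool settings, any Tn5 shift included, were not given in the sources used here. Deposited fold enrichment, a ratio to local background, and the deposited −log10 p and −log10 q are the authors' own values for each peak within its list. The deposited score was not used.

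Intervals on chromosomes 1 to 22 and X sharing 1 bp or more were merged, and the strongest interval of a library stood for it (Python 3.11.15, pandas 2.3.3). Summit tags were recovered from the fold and −log10 p, and matched the latter within 0.002. Gained means an interval in both FOXD2 libraries and no control, and lost the opposite. Gene positions came from RefSeq (GRCh38.p14), without exons, so exon, intron and UTR are not given. Strand came from the promoter table, for 7 of the 10 genes. p-values measure only the spread between libraries, which may be technical, and the exact permutation test used cannot go below 0.333. All 10 genes, every gained or lost region, and other pathway genes with one inside them or at their ends were named. The genes, lists and rules were chosen with earlier results of these data known. The counting was tested on simulated lists.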

Additional observations from a re-analysis of the deposited data

How the results depend on the processing

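All 10 genes kept a gene-end region in all libraries under every alternative except summit windows of 100 bp to each side, where 7 did. Changing the flank could not alter this count, and leaving out a library makes it easier to reach. Lost regions numbered 3 with summit windows (2.21%, against 4.06% of all regions) and 2 without flanks (3.70%, against 3.87%). Without flanks 5 of 16 shared regions ranked higher (31.2%, against 19.0% of all) and 4 lower (25.0%, against 19.6%) with FOXD2. With flanks of 100 kb 9 of 209 regions were gained (4.31%, against 3.89%). There 14 of 84 shared regions ranked higher (16.7%, against 19.0%) and 15 lower (17.9%, against 19.6%). The mean difference in regions per library, −1.5, turned to 5.5 without flanks and 4.5 with flanks of 100 kb, and ran from −12 to 9 with 1 library left out (exact permutation p of 0.667 or 1 where it could be had). With 1 library left out, gained regions ran from 5 to 18, lost ones from 8 to 17, regions ranked higher from 18 to 26 and lower from 14 to 21. The shares over all regions ran from 6.18% to 19.5% gained, 5.93% to 17.0% lost, 32.3% to 35.7% higher and 33.9% to 36.7% lower. The share of inner sites in all libraries ran from 6.67% to 20.6% over all alternatives. The highest came without control replicate 1, where an interval in 3 libraries sufficed. Of single regions, the gained KDM6A region of 11 and 12 tags and the lost regions at KMT2D, ASH2L and GGT7 lost their status under some alternative, and 7 of 20 rank calls overlapped when ranked by fold enrichment, with no sign turned. With summit windows the KMT2C and ASH2L gene-end regions and the LSM1 and BAG4 region were no longer shared, nor was the KDM6A inner region at −log10 q of 5 or more. The cause of these changes was not tested. The labels give both groups replicates 1 and 2. Deviations of same-numbered libraries had r = −0.0018 over 39933 shared regions, which gave no sign that the numbers pair them. In a paired count, added after seeing the data, the FOXD2 minus control differences within pairs were 8 and −11 regions (mean −1.5, exact sign-flip p = 1, smallest possible 0.5). Within both pairs 15 shared regions ranked higher (28.8%, against 26.6% of all) and 14 lower (26.9%, against 27.8%), and 3 gained and 5 lost regions are the same by definition. Depth is unknown, and sites under 8 tags cannot appear.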
